A study of Mus musculus with 5 samples.

Results

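Cathepsins are the main proteases of the lysosome, and the genes described here are Ctsb, Ctsd, Ctss, Ctsl, Ctsz, Ctsh, Ctsc and Ctsg, chosen by name. They are 8 of the 28692 genes listed in the deposited counts, and all 8 were detected. They were followed across immune cells of B16-F10 mouse melanomas, from which live CD45+ white blood cells had been sorted, and the 5' ends of their transcripts were sequenced cell by cell in droplets. The 5 libraries each stand for a treatment, namely anti-PD1, IL15 superagonist, the combination of IL15 superagonist and anti-PD1, the anti-PD1-IL15 protein fusion, and PBS, the control. In all of them, 500000 tumor cells had been placed under the skin and tumors were taken on day 11. The labels place the treatments after resection, without an interval. Neither the strain nor the number of mice behind a library is given in the sources used here. The tag of the combination names IL15 alone, and its title, which names the superagonist, was followed.

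Cathepsins are made as inactive precursors, carried to the lysosome by mannose-6-phosphate receptors and switched on by its acidity. In macrophages and dendritic cells they degrade ingested protein, cut the invariant chain Cd74 and produce the peptides that MHC class II presents. In NK cells and cytotoxic T cells, cathepsin C trims granzymes into their active form within lysosome-related granules. Cathepsins B, S and L are cysteine endopeptidases, of which S is known for its work on the invariant chain in antigen-presenting cells and L for that work in the thymus. Cathepsins Z and H are exopeptidases that trim single residues from the carboxyl and the amino end, cathepsin C removes dipeptides, cathepsin D is an aspartic protease, and cathepsin G is a serine protease of neutrophil granules.

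Classes were set by fixed marker genes, none of them a cathepsin. A class needed at least 3 UMIs (unique molecular identifiers, each 1 captured transcript) over at least 2 of its markers, and 33530 of the 37074 cells that passed the filters were placed. Libraries held 6015 to 8747 barcodes and 32832856 to 81565425 UMIs. Any pair of libraries shared 61 to 104 barcode sequences, or 0.915% to 1.37% of the smaller library. Genes that no gate used were mostly highest in their own class, as Apoe was in macrophages and Bst2 in plasmacytoid dendritic cells (pDC). Among the exceptions, Lyz2 was higher in monocytes than in macrophages and the cDC1 gene Irf8 was highest in pDC. Levels are UMIs of a gene per 1000000 UMIs of the class (CPM), so they are shares of a class's transcripts. CPM is not divided by transcript length and is compared within a gene only. Intervals in parentheses are exact 95% intervals and cover counting error only.

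Promoter sequences from RefSeq (build GRCm38.p6, 250 bases before to 50 after the start of transcription, 5' to 3' along the gene's strand) were found for 6 of the 8 genes, Ctsb and Ctsh being without an entry. Those of 3 genes whose levels are contrasted in what follows are shown: Ctsd, which was high in NK and CD8 T cells and low in conventional dendritic cells; Ctss, which was high in macrophages, monocytes and type 2 dendritic cells; and Ctsz, whose level followed that of Ctss most closely. They lie at chr7:142387778-142388077 on the minus strand, chr3:95526536-95526835 on the plus strand and chr2:174438990-174439289 on the minus strand. Capitals mark matches to the motifs searched on both strands.
Ctsd: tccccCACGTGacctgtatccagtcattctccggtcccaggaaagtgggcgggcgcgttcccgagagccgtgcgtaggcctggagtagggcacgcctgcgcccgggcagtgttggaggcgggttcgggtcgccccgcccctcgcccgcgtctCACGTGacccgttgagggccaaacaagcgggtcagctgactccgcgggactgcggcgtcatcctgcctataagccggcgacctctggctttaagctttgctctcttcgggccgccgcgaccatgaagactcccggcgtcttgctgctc
Ctss: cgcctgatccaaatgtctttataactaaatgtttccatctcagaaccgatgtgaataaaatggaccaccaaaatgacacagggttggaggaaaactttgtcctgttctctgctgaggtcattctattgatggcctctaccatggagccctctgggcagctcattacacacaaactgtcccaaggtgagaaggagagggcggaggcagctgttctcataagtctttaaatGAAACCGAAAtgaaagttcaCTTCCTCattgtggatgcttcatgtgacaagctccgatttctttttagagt
Ctsz: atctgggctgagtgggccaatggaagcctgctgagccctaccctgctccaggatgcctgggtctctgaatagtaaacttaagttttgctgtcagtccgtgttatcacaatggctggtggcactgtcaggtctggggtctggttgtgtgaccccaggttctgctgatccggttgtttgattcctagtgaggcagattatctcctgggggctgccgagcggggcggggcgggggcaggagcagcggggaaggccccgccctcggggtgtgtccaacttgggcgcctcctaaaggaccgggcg

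CACGTG is the core of the element that the lysosomal regulators Tfeb and Tfe3 bind. It occurred at positions -245 and -98 of the Ctsd promoter, counted from the RefSeq start of transcription, and at -236 of that of Ctsl. It was held by 2 of the 6 cathepsin promoters and by 7.15% of 32851 promoters of the same length. By GENCODE, whose coordinates follow, the Ctsl window and most of the Ctsd window lie within the gene. The -98 site of Ctsd and the Ctsl site are thus downstream of the GENCODE start. GAAA followed after 2 bases by a further GAAA, a paired element read by interferon regulatory factors, occurred at -21 in Ctss, in 1 of the 6 and in 3.44% of all promoters. GAGGAAG, a core read by the myeloid factor PU.1, occurred in Ctss at -1 on the opposite strand, in Ctsc and in Ctsg, hence in 3 of the 6 and in 13.6% of all promoters. The Ctsz window held none of the 3 motifs. No match overlapped another.

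The genes lie on 6 chromosomes and are protein-coding. In GENCODE release M21 on mm10, Ctsd is at chr7:142375911-142388038 (minus strand) and Ctsc on the same chromosome at chr7:88278085-88310888 (plus strand). Ctsb is at chr14:63122462-63145923 (plus strand) and Ctsg at chr14:56099881-56102574 (minus strand), where its neighbours include the granule proteases Mcpt8 and Gzme, 14608 and 15052 bases away. Ctss is at chr3:95526786-95556403 (plus), Ctsl at chr13:64359337-64370890 (minus), Ctsz at chr2:174427493-174439039 (minus) and Ctsh at chr9:90054152-90076089 (plus). Ctsb overlaps Fdft1, Ctsz overlaps Nelfcd and Ctsc overlaps Gm26522, each on the opposite strand, and the sources used here do not give the strand setting of the counting. Ctsb had 235033, Ctsz 93379 and Ctsc 116068 UMIs in gated cells, against 5303, 3977 and 662 for their partners.

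**Figure D1:**
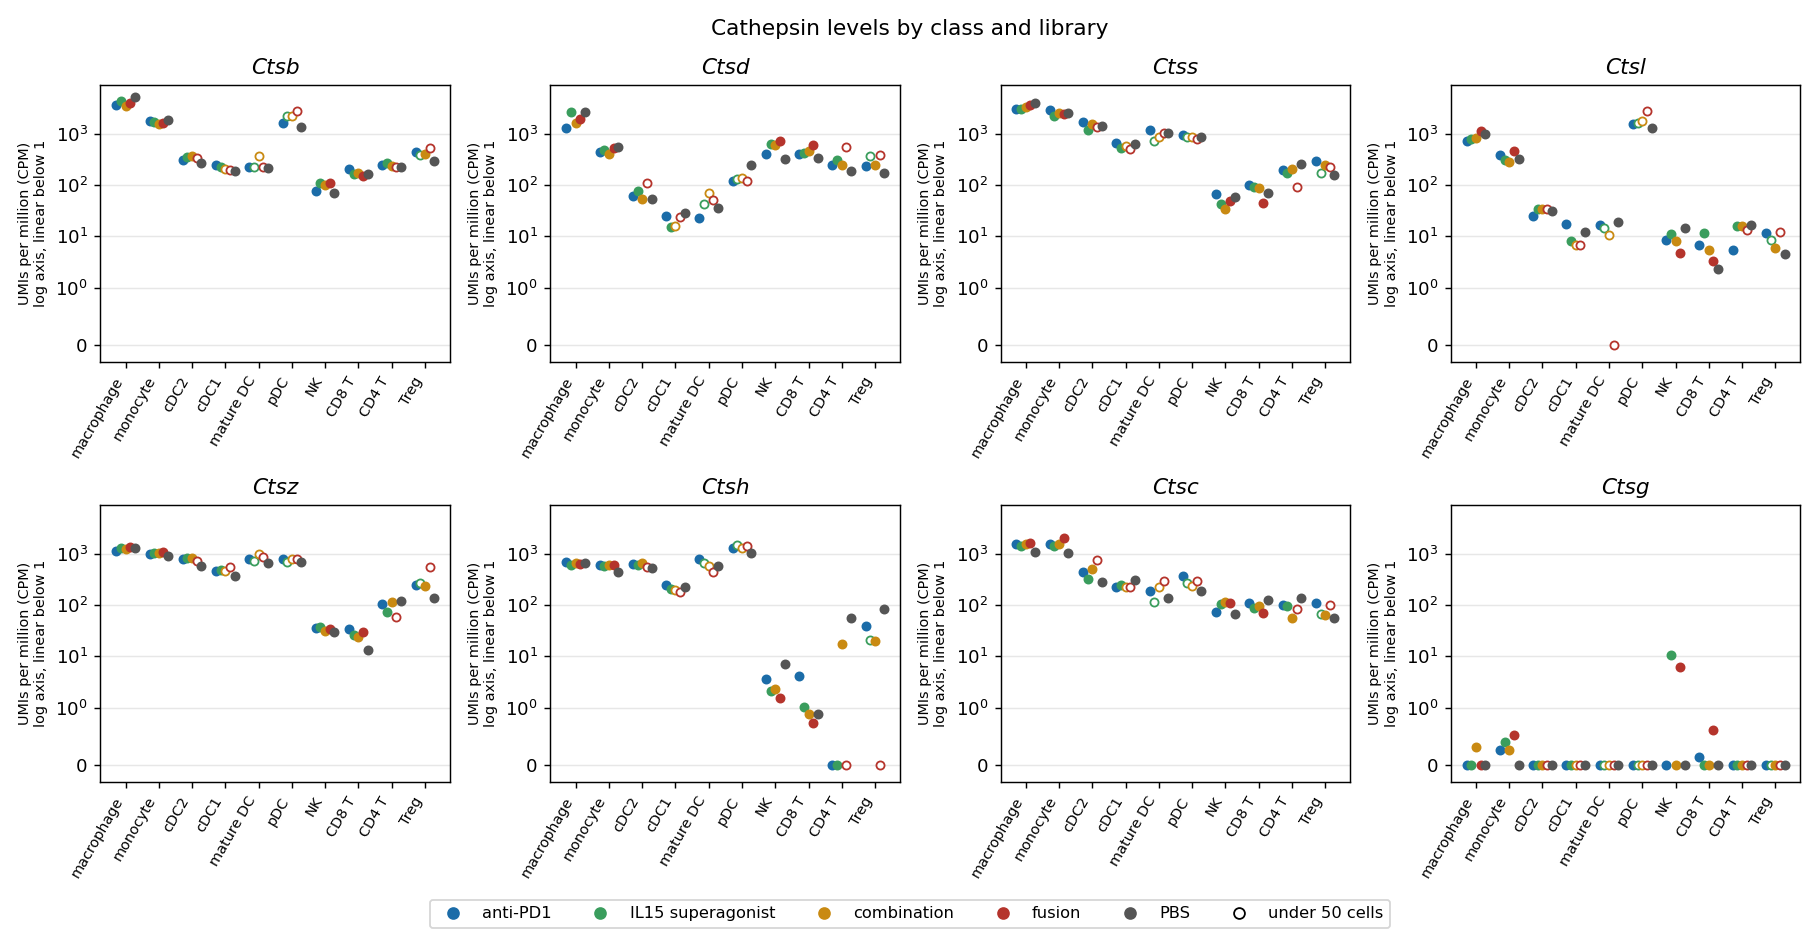
Level of each cathepsin (CPM, on a symmetric log axis) in each class, 1 point per library, with open points for sums of fewer than 50 cells. Ctsb, Ctss, Ctsl, Ctsz and Ctsc are high in macrophages and monocytes and low in lymphocytes, Ctsd is high in NK and CD8 T cells as well and low in conventional dendritic cells, and Ctsg is near 0 throughout.

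The cathepsins together took the largest share of transcripts in macrophages. They made up 1.22%, 1.41%, 1.28%, 1.43% and 1.59% of macrophage UMIs in the anti-PD1, IL15 superagonist, combination, fusion and PBS libraries. In monocytes the shares were 0.864%, 0.773%, 0.803%, 0.879% and 0.774% in the same order. Every macrophage share was above every monocyte share. Conventional dendritic cells held less. In type 2 (cDC2) the shares were 0.401% with anti-PD1, 0.340% with IL15 superagonist, 0.403% with the combination and 0.322% with PBS, and in type 1 (cDC1), the cells known for cross-presentation, 0.189%, 0.172% and 0.175% with anti-PD1, IL15 superagonist and PBS. Sums of at least 50 cells were used here and in the tests, which leaves cDC1 with 3 libraries and cDC2 with 4. NK cells held 0.0576% to 0.103% and CD8 T cells 0.0721% to 0.0899%.

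Macrophages were set against monocytes, the blood cells from which tumor macrophages can arise. Ctsb, Ctsd and Ctsl were higher in macrophages, and Ctss, Ctsz, Ctsh and Ctsc did not pass the test. Tests between classes used edgeR's quasi-likelihood test on UMIs summed per class and library, with the library as a block and p-values adjusted over 12078 genes by Benjamini-Hochberg. The 5 libraries serve as replicates, so the spread they give also holds the treatments. In this contrast 3 of the 8 cathepsins were called higher and 0 lower, by edgeR at an adjusted p under 0.05, beside 19.3% of all genes tested called higher and 19% called lower. At an unadjusted p under 0.05, edgeR had 4 higher, with Ctss as the fourth, and 0 lower, and DESeq2 called the same 3 higher and 0 lower.

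Ctsd separated the classes most. Its level was 1293, 2612, 1651, 1928 and 2683 CPM in macrophages of the anti-PD1, IL15 superagonist, combination, fusion and PBS libraries, and 443, 475, 396, 534 and 546 CPM in monocytes in the same order. The macrophage and monocyte values did not overlap. The difference was 1.97 ± 0.19 on the log2 scale (SE, adjusted p = 6.23e-10 by edgeR's quasi-likelihood test, higher in 5 of 5 libraries).

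Ctsb had 3648, 4364, 3513, 4046 and 5148 CPM in macrophages and 1803, 1671, 1582, 1614 and 1888 CPM in monocytes, the libraries in the same order. Again no macrophage value fell among the monocyte values. The difference was 1.17 ± 0.12 (log2, SE, edgeR adjusted p = 9.98e-10). Ctsl stood at 737, 784, 825, 1147 and 1008 CPM in macrophages, against 385, 312, 288, 473 and 327 CPM in monocytes. Every macrophage value was above every monocyte value, with a difference of 1.24 ± 0.22 (log2, SE, edgeR adjusted p = 4.25e-05).

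The exopeptidases did not pass the test between these classes. Ctsz averaged 1275 ± 76.0 CPM in macrophages and 1011 ± 61.0 CPM in monocytes (SD, n = 5 libraries each), a difference of 0.24 ± 0.14 (log2, SE) that missed the threshold (edgeR adjusted p = 0.172), although CPM was higher in macrophages in 5 of 5 libraries and the ranges did not overlap. Ctsh averaged 654 ± 34.0 CPM in macrophages and 573 ± 68.9 CPM in monocytes. Ctsc, the granzyme-activating enzyme, averaged 1449 ± 209 CPM in macrophages and 1506 ± 345 CPM in monocytes, and the ranges overlapped. Ctss averaged 3402 ± 396 CPM in macrophages and 2547 ± 229 CPM in monocytes, a difference of 0.33 ± 0.15 (log2, SE, edgeR adjusted p = 0.0911) that kept its direction in 5 of 5 libraries. For these 4 genes a missed threshold does not show equal levels. Of the melanoma transcripts, 2 of 5 were higher in macrophages, beside 19.3% of all genes tested. Among these Dct stood at 4.35 to 29.95 CPM in macrophages, against 0.523 to 4.399 CPM in monocytes, and their part in the cathepsin differences was not tested.

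The rest of the lysosome was not uniform in this contrast. Of 30 other lysosomal hydrolases, 19 were higher in macrophages and 2 lower. Naglu, which removes N-acetylglucosamine from heparan sulfate, differed by 1.81 ± 0.17 and Acp5, the tartrate-resistant acid phosphatase, by 1.45 ± 0.23 (log2, SE). Of 16 genes of the lysosomal membrane and its proton pump, 4 were higher and 1 lower. These counts stand beside 19.3% of all genes tested called higher and 19% called lower. Atp6v0d2, a pump subunit of macrophages and osteoclasts, led the membrane list at 4.05 ± 0.38. Cd63, a tetraspanin of late endosomes, followed at 2.40 ± 0.31. The median difference was 0.44 over the hydrolases and 0.11 over the membrane list, beside 0.28 over the 8 cathepsins and 0.01 over all 12078 genes. In the family's other members, Ctsk, the collagen-degrading cathepsin of osteoclasts, was higher at 2.46 ± 0.32 and Ctse lower at -1.25 ± 0.33, and Ctsa, Ctso and Ctsw did not pass.

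**Figure D2:**
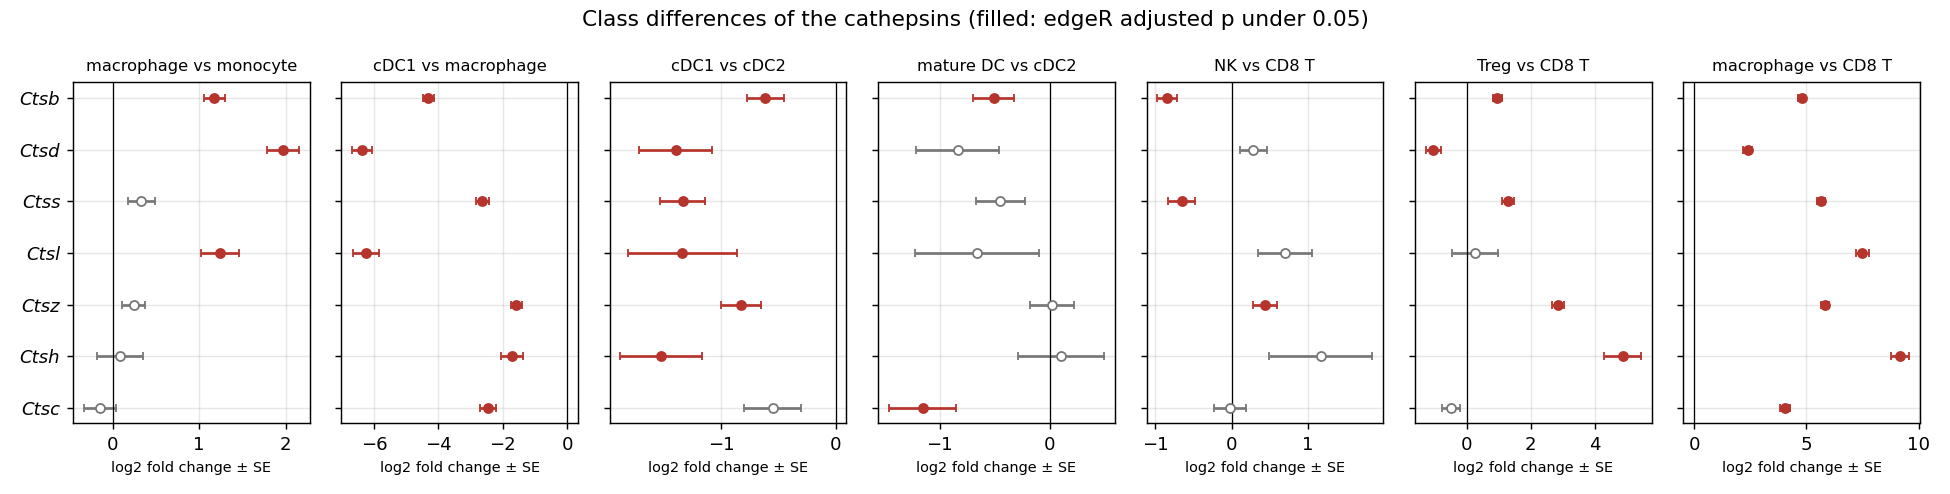
Fitted log2 difference (first class minus second) of each cathepsin in the class contrasts, with bars of ± SE and filled points for genes past the threshold. Ctsd and Ctsl are furthest below 0 in cDC1 against macrophages and Ctsh furthest above 0 in macrophages against CD8 T cells.

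Dendritic cells held a different set. In cDC1, 7 of the 8 cathepsins were lower than in macrophages, beside 23.8% of all genes tested called lower, and Ctsg was the exception. Ctsd had 25.3, 15.5 and 29.1 CPM in cDC1 of the anti-PD1, IL15 superagonist and PBS libraries, the lowest of the 9 classes with at least 3 such sums. Its difference from macrophages was -6.37 ± 0.31 and that of Ctsl -6.25 ± 0.41 (log2, SE, edgeR adjusted p = 4.78e-17 and 8.93e-14). Ctsb followed at -4.31 ± 0.18, Ctss at -2.64 ± 0.21 and Ctsc at -2.46 ± 0.25, while Ctsh and Ctsz, at -1.71 ± 0.35 and -1.59 ± 0.17, differed least. The lysosomal membrane and pump list moved the same way, with 15 of 16 genes lower. Of the hydrolases 21 of 30 were lower and 6 higher, beside 18.2% of all genes called higher, among them Arsb, an arylsulfatase, at 3.87 ± 0.21, and 9 of 10 genes of the Tfeb-Tfe3 factors and their lysosomal control were lower. Cst3, the secreted cathepsin inhibitor cystatin C, was higher in cDC1 at 4.00 ± 0.21 (log2, SE).

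Between dendritic types, 6 of the 8 cathepsins were lower in cDC1 than in cDC2, beside 11.4% of all genes tested called lower. Ctss had 662, 533 and 630 CPM in cDC1 of the anti-PD1, IL15 superagonist and PBS libraries, against 1734, 1165 and 1452 CPM in cDC2 of those libraries, and 1572 CPM in cDC2 of the combination. The cDC1 values lay below all cDC2 values, with a difference of -1.34 ± 0.20 (log2, SE, edgeR adjusted p = 4.13e-06). Ctsh had 244, 207 and 225 CPM in cDC1 and 647, 609.9 and 539.5 CPM in cDC2 of the same 3 libraries, a difference of -1.52 ± 0.36. Ctsz was lower by -0.83 ± 0.17, Ctsb by -0.61 ± 0.16 and Ctsd by -1.40 ± 0.32. Without the IL15 superagonist library, Ctsd did not pass (edgeR adjusted p = 0.0743). Ctsl, at -1.34 ± 0.47, rested on 8 to 20 UMIs per cDC1 sum. It lost its call without PBS, anti-PD1, IL15 superagonist or the combination (adjusted p between 0.100 and 0.195) and kept it only without the fusion library, at 0.0130. Ctsc, at -0.55 ± 0.25, did not pass with all libraries and did without PBS, at -0.87 (adjusted p = 0.00858). Melanoma transcripts stood the other way, 4 of 5 being higher in cDC1, beside 8.13% of all genes called higher. Of these, Dct stood at 143 CPM in cDC1 of the PBS library and at 0 and 1.03 CPM in those with anti-PD1 and IL15 superagonist. Without the PBS library Ctsb, Ctsd, Ctss, Ctsz and Ctsh remained called.

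Mature dendritic cells, marked by Ccr7 and Fscn1, had at least 50 cells in the anti-PD1 and PBS libraries only. There Ctsc stood at 184 and 139 CPM in mature cells, against 438 and 277 CPM in cDC2 of the same libraries, both lower. The difference was -1.15 ± 0.31 (log2, SE, edgeR adjusted p = 0.00407), and without the anti-PD1 library it did not pass (adjusted p = 0.0690). Ctsb differed by -0.51 ± 0.19 (adjusted p = 0.0371), a call lost when any 1 library was left out. These 2 of 8 stand beside 16% of all genes tested called lower and 13.9% called higher. Ctsd did not pass at -0.84 ± 0.38 and did without PBS, at -1.30. Ctsh averaged 699 ± 157 CPM in mature cells and 615 ± 54.6 CPM in cDC2 (SD, n = 2 and 4 libraries).

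Plasmacytoid dendritic cells, the interferon-producing type, departed from the conventional ones. They numbered 10 to 111 a library, and their values are given without a test. Ctsl stood at 1561, 1612, 1748, 2762 and 1288 CPM in pDC of the anti-PD1, IL15 superagonist, combination, fusion and PBS libraries. Set against the macrophage values above, these are ratios of 2.12, 2.06, 2.12, 2.41 and 1.28, and in each library the counting interval lay above 1. Ctsh had 1328, 1465, 1290.5, 1421 and 1040.3 CPM in pDC, against 695, 610.4, 674, 630.0 and 663 CPM in macrophages of the same libraries. Both genes were thus higher in pDC in 5 of 5 libraries. The other detected cathepsins were lower in 5 of 5, with ratios of 0.0504 to 0.0922 for Ctsd and of 0.152 to 0.239 for Ctsc.

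Neutrophil-gated cells reached 50 cells in the anti-PD1 library only, so the test rests on 1 sum that is taken to vary like those of the other classes. Against monocytes 0 of the 8 cathepsins were called by edgeR or DESeq2, beside 2.9% of genes called higher and 2.72% lower by edgeR. At an unadjusted p under 0.05 there were 4, Ctsb, Ctss, Ctsl and Ctsc, with differences of -0.64, -0.91, -1.08 and -1.20 (log2). In cells thinned to 1500 UMIs, Ctsd at 1.39, Ctss and Ctsc were called. Ctss was also called without the fusion library (edgeR adjusted p = 0.0331) and with the stricter gate, and Ctsc without PBS (0.00958) and with cells of 2 lineages kept. Ctsg, the neutrophil protease, had 0 UMIs in the neutrophil-gated cells of every library. With 546158 UMIs in the anti-PD1 sum, a count of 0 allows a level of up to 5.49 CPM.

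Ctsd departed from the other cathepsins in lymphocytes. It had 408, 626, 599.5, 719 and 329.7 CPM in NK cells and 399.5, 415, 459, 603 and 339 CPM in CD8 T cells of the anti-PD1, IL15 superagonist, combination, fusion and PBS libraries. These values overlap one another and those of monocytes. Over the 5 libraries Ctsd averaged 536 ± 162 CPM in NK cells, 479 ± 62.7 CPM in monocytes and 443 ± 99.3 CPM in CD8 T cells (SD, n = 5 each), so these neighbours in its order do not differ beyond their spread. Macrophages stood above them at 2033 ± 605 CPM, and regulatory T cells (Treg) at 216 ± 40.7 and cDC2 at 61.9 ± 11.3 CPM (n = 3 and 4) below. Among classes with sums in at least 3 libraries, macrophages or monocytes ranked first for each other cathepsin except Ctsg. Ctsg was first in NK cells at 3.39 ± 4.89 CPM (n = 5). This ranking leaves out pDC, which stood above macrophages for Ctsl and Ctsh, and mature dendritic cells, neutrophils and B cells. Within it, type 2 dendritic cells came next after macrophages and monocytes for Ctss, Ctsl, Ctsz and Ctsc. They lay between those classes for Ctsh and below Treg cells for Ctsb.

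Transcripts freed from broken cells enter every droplet, so lymphocyte levels were set beside those of 10 genes known from myeloid cells. As a percentage of the macrophage level, the median over libraries in NK cells was 31.5% for Ctsd, 6.63% for Ctsc, 2.60% for Ctsz, 2.48% for Ctsb, 1.45% for Ctss, 1.15% for Ctsl and 0.350% for Ctsh. The same median was 0.473% for Lyz2, 0.326% for Apoe and 0.239% for Ccl6. In CD8 T cells it was 27.8% for Ctsd and 6.13% for Ctsc, against 0.204% for Lyz2 and 0.186% for Apoe. Over all 10 myeloid genes listed for this check the medians ran from 0% to 1.76% in NK cells and from 0.0842% to 4.25% in CD8 T cells, apart from Spp1 at 20.02% and 10.3%. Ctsd stood above each of the 10 in both classes, and Ctsc above all but Spp1. Spp1 reached 931 CPM in NK cells of the fusion library, and the upper end in CD8 T cells is that of Ccl9, so these need not be absent from lymphocytes. Lyz2, Apoe, Ccl6, Wfdc17 and Csf1r had medians of 0.151% to 0.352% in CD8 T cells and 0.239% to 0.958% in NK cells. Ctsh was below or within these in both classes, and the part of free RNA in its level was not tested. Ctsb, Ctss, Ctsz and Ctsl stood above these 5 genes, Ctsb at 3.71%, Ctss at 2.60%, Ctsz at 2.01% and Ctsl at 0.661% in CD8 T cells, and the part of free RNA in them was not tested. The share of cells with a Ctsd UMI, after each cell had been thinned to 1500 UMIs, was 39.6% to 62.8% in NK cells and 37% to 57.1% in CD8 T cells, and 0% to 5.81% in cDC1. Unthinned, it was 55.7% to 87.6%, 73.4% to 95.2% and 8.89% to 19.8%, at median depths of 2472 to 3919, 4580 to 9067.5 and 8201 to 14342.5 UMIs per cell.

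NK and CD8 T cells are the 2 killer classes. Ctsb and Ctss were lower in NK cells and Ctsz and Ctsg higher, or 2 of 8 each way, beside 23.6% of all genes tested called lower and 19.8% called higher. Ctsb had 76.4, 108, 101, 108 and 69.6 CPM in NK cells, against 209, 162, 172, 148 and 167 CPM in CD8 T cells, and the groups did not overlap. The difference was -0.84 ± 0.13 (log2, SE, edgeR adjusted p = 1.57e-06). Ctss averaged 49.9 ± 12.2 CPM in NK cells and 78.9 ± 22.4 CPM in CD8 T cells (SD, n = 5 each), a difference of -0.65 ± 0.17 (edgeR adjusted p = 0.00246) that held in 4 of 5 libraries. Both turned when cells with markers of 2 lineages were kept in their class, to 0.027 for Ctsb and 0.32 for Ctss. Ctsz differed by 0.44 ± 0.16 (adjusted p = 0.0278) and lost its call without PBS, IL15 superagonist or the combination. Ctsc, which activates the granzymes of both classes, averaged 94.2 ± 21.5 CPM in NK cells and 97.6 ± 22.5 CPM in CD8 T cells, a difference of -0.02 ± 0.20 (adjusted p = 0.958).

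The Ctsg call came from very few cells. Of 107 Ctsg UMIs in the sums tested, 45 were in 3 of 1081 NK cells of the IL15 superagonist library and 8 in 1 of 242 NK cells of the fusion library, and 40 in 20 of 6364 CD8 T cells of the fusion library. The fitted difference was 4.01 ± 0.82 (log2, SE, edgeR adjusted p = 0.00048), 2.47 without the IL15 superagonist library (adjusted p = 0.0509), and DESeq2 did not call it (adjusted p = 0.600).

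Treg cells, which restrain other T cells, had more of 4 cathepsins than CD8 T cells and less Ctsd. These 4 of 8 higher and 1 lower stand beside 9.01% of all genes tested called higher and 8.49% called lower. Ctsz had 249.5, 238 and 135 CPM in Treg cells of the anti-PD1, combination and PBS libraries, against 33.6, 23.4 and 13.1 CPM in CD8 T cells of those libraries. Each Treg value was above each CD8 T value, with a difference of 2.85 ± 0.18 (log2, SE, edgeR adjusted p = 2.72e-14). Ctsh had 38.7, 19.6 and 83.4 CPM in Treg cells and 4.08, 0.885 and 0.897 CPM in CD8 T cells, a difference of 4.87 ± 0.57. Ctss differed by 1.28 ± 0.20 and Ctsb by 0.95 ± 0.15, and Ctsd by -1.05 ± 0.23 (edgeR adjusted p = 7.42e-06, 5.88e-06 and 0.0014). Conventional CD4 T cells, not tested, stood the same way. Their means were 103, 18.2, 208, 245 and 247 CPM for Ctsz, Ctsh, Ctss, Ctsb and Ctsd (n = 4 libraries). In CD8 T cells these were 25.3, 1.52, 78.9, 171 and 443 CPM (n = 5). Treg and CD4 T ranges overlapped for Ctss, Ctsh and Ctsd, and not for Ctsz. As a percentage of the macrophage level, the median over the Treg sums was 19.0% for Ctsz, 7.22% for Ctss and 5.57% for Ctsh, against 0.169% for Lyz2 and 0.133% for Apoe. The 10 myeloid genes had medians of 0% to 3.83%, and Cxcl2 reached 11.0% in a single library, above the lowest Ctsh value of 2.90%. None of the 10 is a marker of the dendritic gates, and the part of dendritic-cell transcripts in the Treg values was not tested.

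Macrophages against CD8 T cells set the width of the family. There 7 of the 8 cathepsins were higher in macrophages, beside 35.4% of all genes tested called higher and 40.3% called lower, from 2.38 ± 0.19 for Ctsd to 9.17 ± 0.41 for Ctsh (log2, SE). The pump and membrane list was higher in 16 of 16 and the hydrolases in 28 of 30, Lgmn, the legumain that processes cathepsins, at 8.97 ± 0.38. The granule proteases, which include the granzymes that Ctsc activates, were lower in 11 of 12, with Prtn3, a protease of myeloid granules, higher at 5.78 ± 0.46. Ctsw, the cathepsin of NK and CD8 T cells, was lower in macrophages at -7.32 ± 0.22.

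Levels of the cathepsins across classes were alike to different degrees. Over the 45 class and library sums, which share libraries and depth, Pearson's r of log2(CPM + 1) was 0.97 for Ctss with Ctsz, 0.94 for Ctsz with Ctsh and 0.91 for Ctsl with Ctsb. For Ctsd it was 0.46 with Ctsb, 0.01 with Ctss, -0.09 with Ctsz and -0.20 with Ctsh. Among 9341 genes, those most like Ctsd were Rnf128, Arhgap10 and Tmem171, at 0.90, 0.88 and 0.88. Those most like Ctss were Sdc3, Lamp2 and Gpx1 (0.96 each), for Ctsz Nrros, Gpx1 and Scpep1 (0.96 each), for Ctsh Nrros, Csf2rb and H2-DMa (0.95 each) and for Ctsc Lyz2, Pla2g4a and Myof (0.96, 0.96 and 0.95). Ctsb was most like Atp6v1c1, a pump subunit, with Fth1 and Adam17 next (0.94, 0.93 and 0.92), and Atp6ap1 and Arhgap24 were among the 3 most like Ctsl (0.93 and 0.92).

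Each treatment has 1 library, so nothing tests a difference between treatments and the values describe these libraries. A ratio was called at 1.5-fold or more with at least 20 UMIs over both libraries. The comparisons with PBS all share the PBS library, so a value particular to that library enters each of them.

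**Figure D3:**
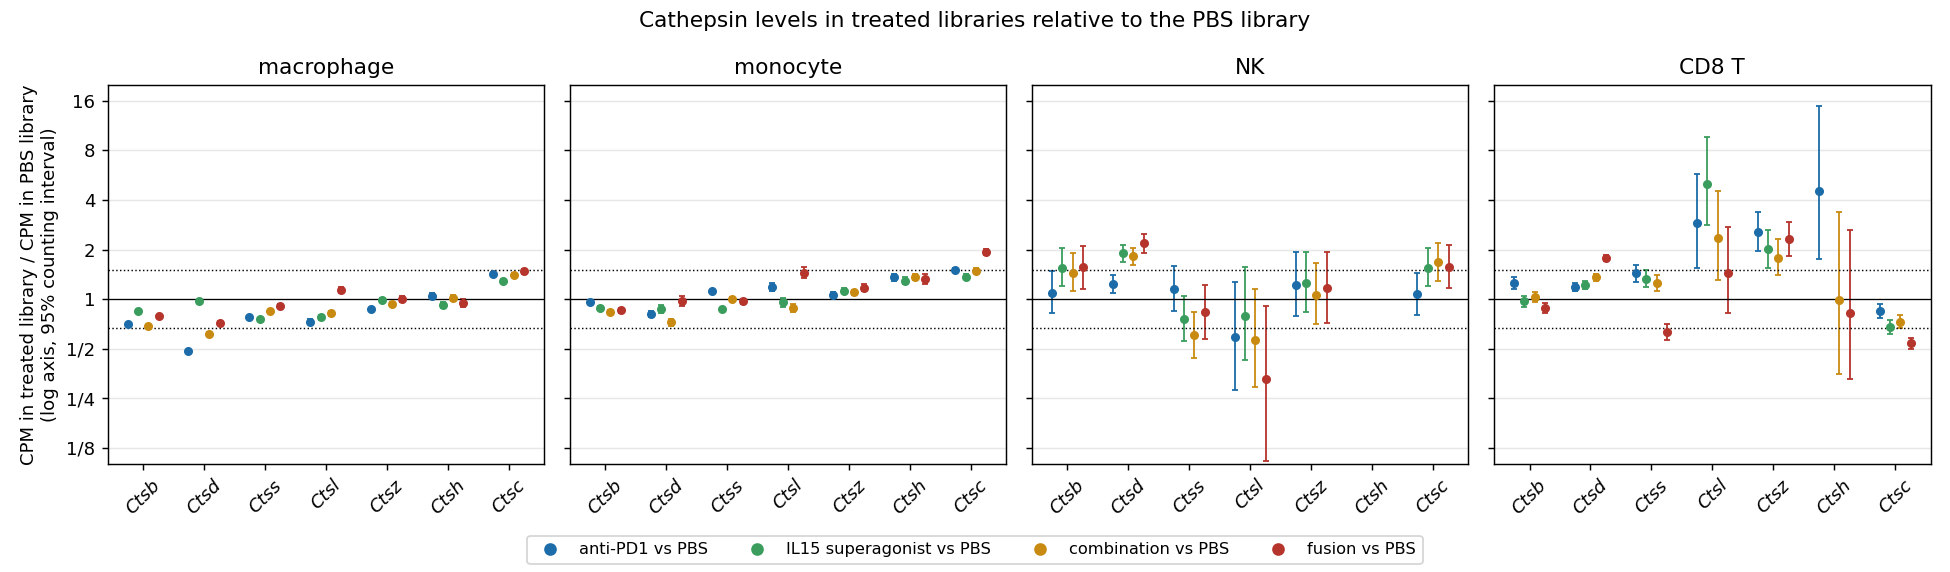
Ratio of each cathepsin's CPM in each treated library to the PBS library (log axis) in 4 classes, with exact 95% counting intervals and dotted lines at 1.5-fold. Ctsd lies below 1 in macrophages and above 1 in NK and CD8 T cells, and Ctsc lies above 1 in macrophages and monocytes and below 1 in CD8 T cells.

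In macrophages Ctsd varied most between libraries, 1293 CPM with anti-PD1, 1651 with the combination and 1928 with the fusion, against 2612 with IL15 superagonist and 2683 with PBS. The ratio to PBS was 0.482 (0.472 to 0.492) with anti-PD1, 0.615 (0.601 to 0.630) with the combination, 0.719 (0.697 to 0.742) with the fusion and 0.974 (0.954 to 0.993) with IL15 superagonist. Ctsd was the only 1 of 7 cathepsins with enough UMIs to be called lower with anti-PD1 or with the combination, beside 11.8% and 13.3% of all genes tested called lower. With IL15 superagonist and with the fusion none of the 7 was called against PBS, beside 9.51% and 23.2% of genes called lower and 7.68% and 6.82% called higher. IL15 superagonist stood 2.02-fold (1.98 to 2.06) above anti-PD1 for Ctsd, 1 of 7 called higher beside 9.27% of genes. After thinning, a Ctsd UMI was found in 62.2%, 76.2%, 68.1%, 75.9% and 81.4% of macrophages with anti-PD1, IL15 superagonist, the combination, the fusion and PBS. Both called ratios kept their direction and their call under the 10 alternatives tried.

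Ctsb followed in the same direction without reaching 1.5-fold, with ratios to PBS of 0.709 for anti-PD1, 0.848 for IL15 superagonist, 0.683 for the combination and 0.786 for the fusion. Ctsl was called in macrophages only between treated libraries, the fusion standing 1.56-fold (1.49 to 1.62) above anti-PD1, beside 5.73% of genes called higher. Thinned to 1500 UMIs per cell, that log2 ratio was 0.41, under the threshold. Around the cathepsins, with anti-PD1 against PBS, Ctsk was lower at -1.71, Atp6v0d2 at -1.68 and Cd63 at -1.15 (log2 ratios). The membrane and pump list had 0 of 16 genes higher and 3 lower in that comparison, and the hydrolases 1 of 30 higher and 6 lower. Of all genes tested, 6.07% were called higher and 11.8% lower. The median log2 ratio was -0.37 over the 7 cathepsins and -0.09 over 10785 genes.

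Macrophages with a UMI of Arg1, the arginase of suppressive macrophages and no gate marker, differed in cathepsins from those without. This split was chosen after values had been seen. Such cells were 42.9%, 51.9%, 39.3%, 67.2% and 51.3% of macrophages with anti-PD1, IL15 superagonist, the combination, the fusion and PBS. Ctsl had 1243, 1126, 1315, 1524 and 1539 CPM in cells with Arg1, against 352, 403, 531, 305 and 481 CPM in cells without it. Every value with Arg1 was above every value without. Ctsd had 1482, 3244, 1987, 2356 and 3115 CPM with Arg1, against 1148, 1909.8, 1449, 976 and 2253 CPM without, and the ratio within a library was 1.29 to 2.41. Ctsb ran the same way, with ratios of 1.27 to 1.89, and Ctsc the other way, with 0.762 to 0.934. Cells with more UMIs are more likely to show an Arg1 UMI, and depth's part in the split was not tested. Without the Arg1 cells, Ctsd remained at -0.97 for anti-PD1 and -0.64 for the combination against PBS (log2 ratios), and the fusion stood below anti-PD1, at -0.23, against 0.58 with all macrophages. For Ctsl the fusion stood at -0.20 against anti-PD1 without the Arg1 cells, the other way from its value in all macrophages.

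**Figure D4:**
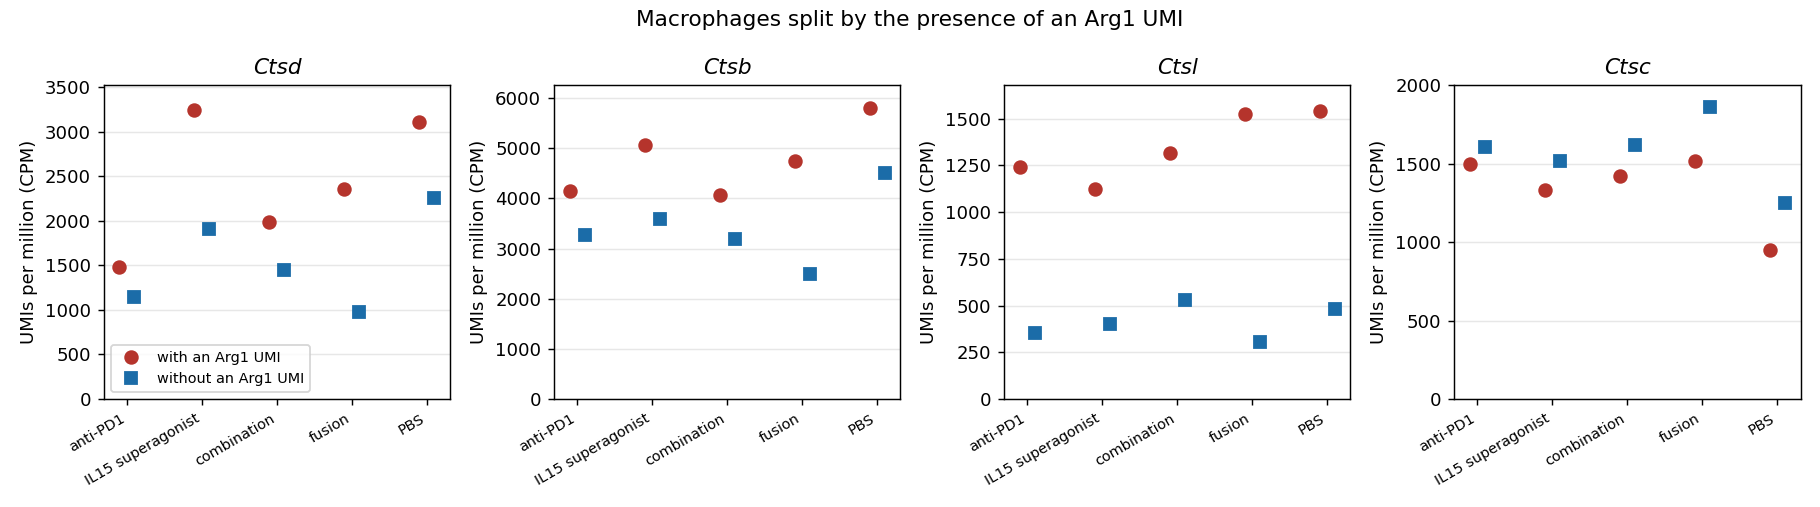
Level of Ctsd, Ctsb, Ctsl and Ctsc (CPM) in macrophages with and without an Arg1 UMI, by library. Ctsd, Ctsb and Ctsl are higher with Arg1 in all 5 libraries and Ctsc is lower.

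Ctsc ran against Ctsd in macrophages and monocytes. In monocytes it had 1548, 1413, 1541 and 1996 CPM with anti-PD1, IL15 superagonist, the combination and the fusion, against 1034 CPM with PBS, and all 4 treated libraries stood above PBS. The ratio was 1.93 (1.85 to 2.01) with the fusion, 1 of 7 cathepsins called higher beside 13% of genes, and 1.498 (1.45 to 1.54), 1.37 (1.32 to 1.41) and 1.49 (1.45 to 1.54) with anti-PD1, IL15 superagonist and the combination, each under the threshold. In macrophages it had 1558, 1419, 1544 and 1624 CPM, against 1098 CPM with PBS, ratios of 1.29 to 1.48. In cDC2 it stood 1.58-fold (1.42 to 1.76) above PBS with anti-PD1 and 1.80-fold (1.61 to 2.01) with the combination, beside 11.7% and 11.4% of genes called higher. In cDC1 Ctsc was instead highest with PBS, at 307 CPM, against 224 CPM with anti-PD1 and 242 CPM with IL15 superagonist. Ctsl was called in monocytes between the fusion and the combination, at 1.64 (1.52 to 1.77), beside 7.28% of genes called higher. That ratio was 0.45 on the log2 scale, under the threshold, in cells thinned to 1500 UMIs.

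Ctsc ran the other way in CD8 T cells. It had 109, 87.0, 94.0 and 69.3 CPM with anti-PD1, IL15 superagonist, the combination and the fusion, against 129 CPM with PBS, which was highest. The ratio with the fusion was 0.539 (0.498 to 0.584). A Ctsc UMI was found, after thinning, in 15.1%, 11.8%, 12.2%, 10.2% and 17.4% of CD8 T cells in the order anti-PD1, IL15 superagonist, combination, fusion, PBS. Unthinned shares were 46.6%, 35.9%, 39.4% and 45.4% in the treated libraries, and 428 of 856 cells had one with PBS. Ctss, at 44.2 CPM with the fusion and 70.0 with PBS, had a ratio of 0.631 (0.568 to 0.704) and was called lower too. These are 2 of 8 called lower beside 28% of all genes tested. CD8 T cells with a UMI of the cycling genes Mki67 or Top2a were 62.4% with the fusion, against 41.1% with PBS. Without them the log2 ratio was -0.82 for Ctsc, still called, and -0.51 for Ctss, under the threshold.

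Granule proteases stood the other way from Ctsc in the fusion library. Of 11 with enough UMIs, 10 were called higher in CD8 T cells with the fusion than with PBS, beside 19.4% of all genes tested. Gzmg had a log2 ratio of 4.71, Mcpt8 had 323 UMIs with the fusion and 0 with PBS, and Gzmk, the exception, had a log2 ratio of -0.07. Ctsw stood at 1.36, and Lamp1, the lysosomal membrane protein shown on degranulating cells, at 1.61. The inhibitors Serpinb1a and Ctla2a, of which Serpinb1a blocks cathepsin G and neutrophil elastase, stood at 2.81 and 1.33.

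Ctsd was higher in lymphocytes of the fusion library than in those of the PBS library. Among CD8 T cells it stood at 603 CPM with the fusion, against 339 CPM with PBS, a ratio of 1.78 (1.70 to 1.87), whereas anti-PD1, IL15 superagonist and the combination gave 1.18, 1.23 and 1.35. With the fusion, Ctsz at 2.30 (1.82 to 2.95) was called higher as well, from 73 UMIs with PBS. These are 2 of 8 beside 19.4% of genes called higher, a share that also counts genes with 0 UMIs with PBS. The higher Ctsz was not particular to the fusion. PBS was the lowest library at 13.1 CPM, the median over the 5 libraries was 26.4 CPM, and anti-PD1 was highest at 33.6 CPM, 2.57-fold above PBS. Ctsg had 40 UMIs with the fusion and 0 with PBS, and its ratio of at least 1.14 against a floor of 3 UMIs did not reach the threshold. Ctsz, Ctsl and Ctsh in CD8 T cells rest on 73, 13 and 5 UMIs in the PBS library. Their ratios, up to 4.99 (2.82 to 9.64) for Ctsl with IL15 superagonist, were in part turned when cells with markers of 2 lineages were kept.

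In NK cells Ctsd stood at 626, 599.5 and 719 CPM with IL15 superagonist, the combination and the fusion, against 408 CPM with anti-PD1 and 329.7 CPM with PBS. The ratio to PBS was 1.90 (1.69 to 2.14), 1.82 (1.62 to 2.05) and 2.18 (1.92 to 2.48) for the first 3 and 1.24 (1.09 to 1.41) for anti-PD1, the only treatment among the 4 without IL15. Thinned shares of NK cells with a Ctsd UMI were 57.2%, 54.1% and 62.8% with those 3 treatments, 42.1% with anti-PD1 and 39.6% with PBS, so the order of the shares was that of the levels. Ctsc was called higher in the same 3 libraries, at 107, 115 and 108 CPM against 68.6 CPM with PBS, ratios of 1.56 (1.20 to 2.04), 1.67 (1.29 to 2.20) and 1.57 (1.16 to 2.13). With cells of 2 lineages kept, the log2 ratios of Ctsc were 0.12, 0.28 and -0.11, so all 3 calls were lost and that of the fusion turned. The median depth of NK cells was 3166 to 3919 UMIs in the treated libraries, against 2472 with PBS.

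Counting Ctsb and Ctsg too, NK cells had 4 of 7 cathepsins called higher with IL15 superagonist, beside 21.1% of genes. With the combination 2 of 6 were called higher and 2 lower, beside 19.8% and 17.9% of genes, and with the fusion 3 of 6 were called higher and 1 lower, beside 24.2% and 25.7%. With anti-PD1, 0 of 6 were called higher and 1 lower, beside 14.4% and 13.7%. The lower ones were Ctsl, from 14 UMIs with PBS, and Ctss with the combination, at 0.604 (0.439 to 0.841). Ctsb, at 1.55 with IL15 superagonist and 1.56 with the fusion, turned to log2 ratios of -0.36 and -1.13 when cells with markers of 2 lineages were kept, whereas Ctsd stayed called with those 2 treatments under that setting, at 0.72 and 0.76, and with the combination came to 0.48, under the threshold.

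**Figure D5:**
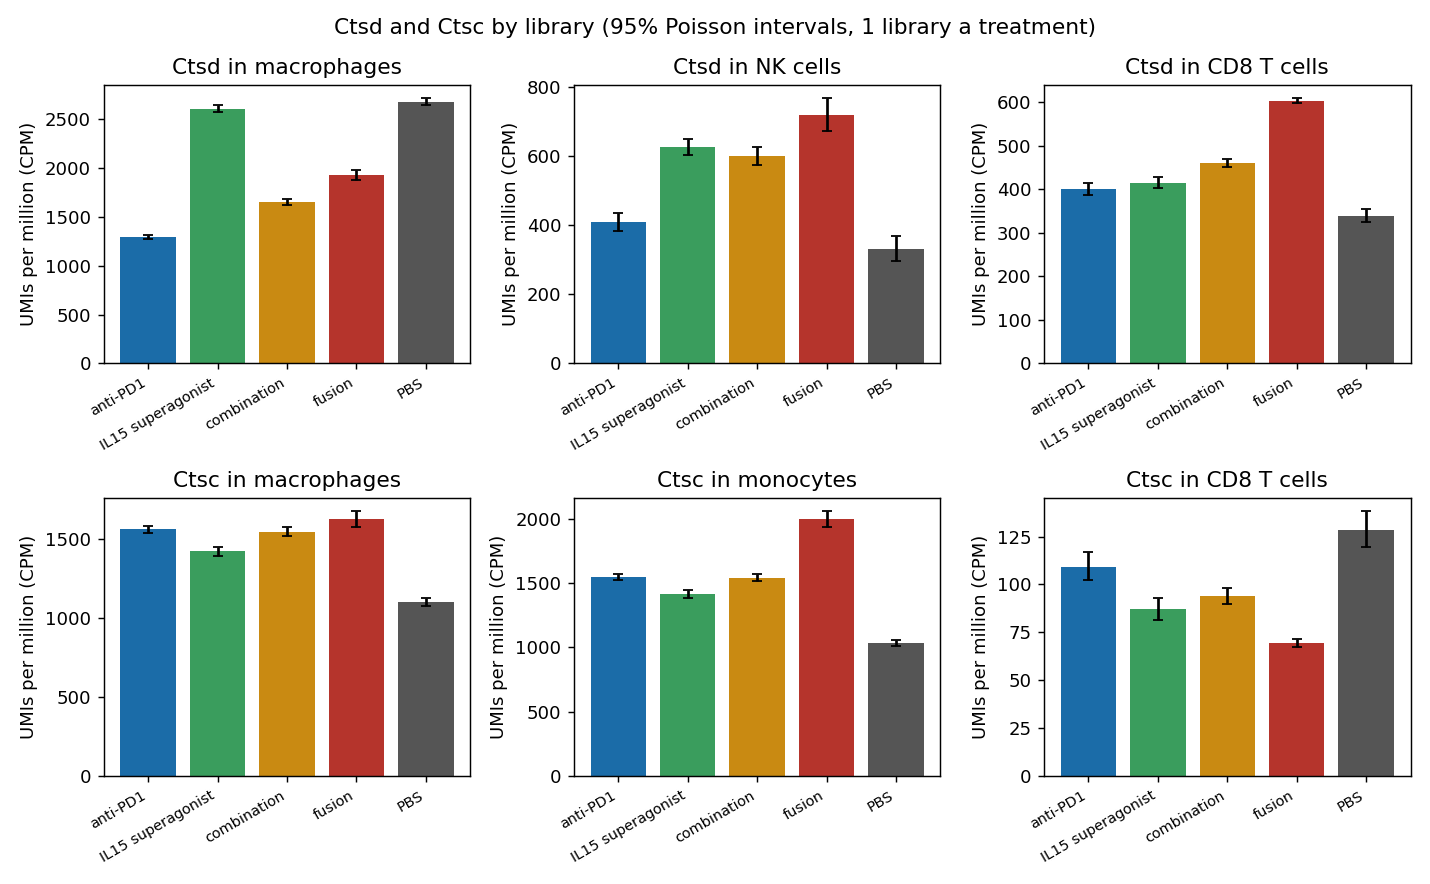
Ctsd in macrophages, NK cells and CD8 T cells and Ctsc in macrophages, monocytes and CD8 T cells (CPM with exact 95% Poisson intervals, 1 library per treatment). Ctsd is lowest with anti-PD1 in macrophages and highest with the fusion in both lymphocyte classes, and Ctsc in CD8 T cells is lowest with the fusion and highest with PBS.

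Against the combination, the fusion library showed no cathepsin called in macrophages among 7, beside 5.16% of genes called higher and 9% lower. Ctsd stood at 1.17 (1.13 to 1.21) there, at 1.20 (1.11 to 1.30) in NK cells and at 1.31 (1.28 to 1.34) in CD8 T cells, each under the threshold. In CD8 T cells Ctss was called lower at 0.507 (0.478 to 0.538) and Ctsl at 0.617 (0.489 to 0.782), 2 of 8 beside 17.4% of genes.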

How the data were processed

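RNA was measured in 5 single-cell libraries, 1 per treatment. The authors deposited raw UMI counts per gene and cell barcode, made with Cell Ranger 2.1.1 on mm10 per the submitters' processing notes. Cells were kept from 200 genes upward and up to 10% mitochondrial UMIs. A class needed 3 UMIs over 2 of its markers. Cells passing gates of 2 lineages and cells over the limit described below were removed, together 2.80% to 6.28% of kept cells. The alternative that kept cells of 2 lineages kept both kinds. No doublet caller was run, so doublets within a lineage remain. A limit of 1 UMI of other markers was added after granule-protease UMIs were seen in monocytes of the IL15 superagonist library. In myeloid and B cells it covered T and NK markers. In lymphoid cells it covered macrophage markers and those monocyte markers that T and NK cells do not share. Markers of dendritic cells, neutrophils and B cells were not part of it. Cathepsin values were not used for it. Members, lists and tests were chosen with earlier results of these data known.

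UMIs were summed per class and library. Classes were compared with edgeR 4.0.16 (R 4.3.3) on 45 sums of at least 50 cells, with DESeq2 1.42.0 as an alternative. The p-values measure the spread between these 5 libraries. On simulated counts of 11009 genes, the macrophage against monocyte test recovered 87.5% of 200 changed genes. The changes were 2-fold, in genes with at least 1000 UMIs, and no library or treatment effect was simulated. The percentage does not carry over to smaller differences or to genes with fewer UMIs. Treatments were compared by CPM ratios with exact intervals, calling 1.5-fold with 20 UMIs. Log2 ratios add 0.5 to each count, and a count of 0 is set to a floor of 3 for a bound. For shares of cells, each cell was thinned to 1500 UMIs, and no cell was shallower. All 8 cathepsins are named. From each list, the 2 largest and 2 smallest values could be named, and for likeness the 3 genes of highest Pearson r with at least 1000 UMIs. Other tools were Python 3.11.15, numpy 2.4.6, scipy 1.17.1, pandas 2.3.3 and matplotlib 3.10.9. Alternatives covered gates, filters, depth, scaling, the block and each library left out. A few genes that these rules would name are not reported here.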

Additional observations from a re-analysis of the deposited data

Results flagged for a closer look

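The cases flagged here came from 4 comparisons and are not a full list. In each, a cathepsin stood past 1.5-fold in opposite directions in different classes. Left out, for example, is Ctsl with anti-PD1 against PBS, called lower in NK cells and higher in CD8 T cells. The share of all genes with such opposite calls is not given, so the count is not a result about the cathepsins. With the fusion against PBS, 13% of all genes tested were called higher in monocytes and 28% lower in CD8 T cells. With 1 library per treatment the difference between classes was not tested. With the combination against PBS, Ctsd had a ratio of 1.82 in NK cells and of 0.615 in macrophages, 1.63-fold lower. With cells of 2 lineages kept, the NK value was a log2 ratio of 0.48, under the threshold. With the fusion against PBS, Ctsc had a ratio of 1.93 in monocytes and 1.57 in NK cells, and of 0.539 in CD8 T cells, 1.86-fold lower. With cells of 2 lineages kept, the NK value turned to a log2 ratio of -0.11. With the fusion against the combination, Ctsl had a ratio of 1.64 in monocytes and of 0.617 in CD8 T cells, 1.62-fold lower. Thinned to 1500 UMIs per cell, both were under the threshold, at log2 ratios of 0.45 and -0.50. With the fusion against anti-PD1, Ctsl had a ratio of 1.56 in macrophages and of 0.499 in CD8 T cells, 2.005-fold lower. Thinned, these were log2 ratios of 0.41 and 0.21, so the opposite directions were lost, and without macrophages with an Arg1 UMI the macrophage value was -0.20. As a percentage of the macrophage level, the median in CD8 T cells was 0.661% for Ctsl, against 0.204% for the myeloid gene Lyz2, and the part of free RNA in these ratios was not tested.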

How the results depend on the processing

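Between treatments, no paired analysis was possible because each has 1 library, whereas the class tests kept the library as a block. Over the 8 cathepsins, direction and call were kept in 103 of 103 recomputed values for cDC1 against macrophages, Treg against CD8 T cells and macrophages against CD8 T cells. They were kept in 101 of 103 for macrophages against monocytes, 90 of 103 for cDC1 against cDC2, 87 of 103 for mature dendritic cells against cDC2, 88 of 95 for neutrophils against monocytes and 91 of 103 for NK against CD8 T cells. For treatment ratios the counts were 546 of 560 in macrophages, 499 of 504 in monocytes, 351 of 432 in NK cells and 441 of 500 in CD8 T cells. The causes of the changes below were not tested, and values are log2 ratios.

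With cells of 2 lineages kept, Ctsb in NK against CD8 T cells stood at 0.027 (edgeR adjusted p = 0.928) and Ctss at 0.32 (0.317). In NK cells Ctsb stood at -0.36, -0.66 and -1.13 for IL15 superagonist, combination and fusion against PBS, and at -0.80 and -1.27 for combination and fusion against anti-PD1. Ctsc stood at -0.11 for fusion against PBS, and at -0.38 and -0.76 for combination and fusion against anti-PD1. Ctsz stood at -1.13 for fusion against PBS, -0.82 for fusion against combination and -0.88 for IL15 superagonist against anti-PD1, and Ctss at -0.93 for fusion against combination. Among CD8 T cells Ctsl stood at -0.30, -0.069, -0.87 and -2.38 for anti-PD1, IL15 superagonist, combination and fusion against PBS, and Ctsz at -0.81 for fusion against PBS and -0.86 against combination. The median over the cathepsins stood, in NK cells, at -0.37, -0.66 and -1.13 for IL15 superagonist, combination and fusion against PBS, and at -0.76 and -1.30 for combination and fusion against anti-PD1. In CD8 T cells it stood at -1.01 for fusion against PBS, -0.81 against combination and -1.45 against anti-PD1, and at -0.63 for IL15 superagonist against anti-PD1.

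For the median of IL15 superagonist against PBS in NK cells, the stricter gate gave 0.41, thinning 0.56, leaving out cycling cells 0.52, another class total 0.40 and a minimum of 50 UMIs 0.47. Thinning gave 0.65 and 1.02 for combination and fusion against PBS and 0.82 for fusion against anti-PD1 there, and the minimum of 50 UMIs 0.63 for fusion against PBS. For fusion against anti-PD1 in CD8 T cells, the stricter gate gave -0.59, leaving out cycling cells -0.62, another class total -0.61 and the minimum of 50 UMIs -0.66. Leaving out cycling cells gave 0.67 for anti-PD1 against PBS. Thinning gave Ctsl 0.71 and 0.21 for combination and fusion against anti-PD1 in CD8 T cells. Weighting each cell the same gave Ctsh 1.41 and 0.97 for combination and fusion against PBS there. The class total without mitochondrial, ribosomal and antigen receptor genes moved the median of all genes in NK cells by -0.23 for IL15 superagonist against PBS.

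The 2 alternatives chosen after seeing the data, gave these values. Without the limit on other markers, the median stood at 0.11 for IL15 superagonist against PBS in NK cells, and at 0.69 for anti-PD1 against PBS and -0.81 for fusion against anti-PD1 in CD8 T cells. Ctsl stood at 0.86 and 0.66 for fusion against combination and anti-PD1 in NK cells, Ctsz there at -0.66 for IL15 superagonist against anti-PD1, and Ctsh at 0.62 for combination against PBS in CD8 T cells. Without macrophages with an Arg1 UMI, Ctsl in macrophages stood at -0.80, -0.20 and -0.65 for fusion against combination, anti-PD1 and PBS.

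Counts of genes called also moved. Thinned, 2388 genes were called for macrophages against monocytes, against 4622 with all UMIs, 2235 for cDC1 against macrophages (5073), 634 for cDC1 against cDC2 (2361), 1541 for mature dendritic cells against cDC2 (3614), 3047 for NK against CD8 T cells (5235) and 1093 for Treg against CD8 T cells (2114). The last was 3224 with cells of 2 lineages kept. Without the library block, 2819 were called for macrophages against monocytes and 362 for neutrophils against monocytes (678). With 1 library left out, counts ran from 3618 to 4536 for macrophages against monocytes, 4104 to 4974 for cDC1 against macrophages, 1512 (without anti-PD1) to 2476 for cDC1 against cDC2, 1915 (without PBS) to 3629 for mature dendritic cells, 492 to 738 for neutrophils, 4186 to 4869 for NK against CD8 T cells, 1272 (without anti-PD1) to 2165 for Treg against CD8 T cells and 8552 to 8862 for macrophages against CD8 T cells. Where a class had 1 sum left, that sum was taken to vary like the others.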

Other observations

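Between dendritic types other hydrolases were mixed, while the membrane and pump list stood the same way as the cathepsins. In cDC1 against cDC2, 7 of 30 other hydrolases were higher and 9 lower by edgeR at an adjusted p under 0.05, while 0 of 16 membrane and pump genes were higher and 7 lower, beside 8.13% of all genes higher and 11.4% lower. Ppt1, a lysosomal palmitoyl thioesterase, differed by 3.10 ± 0.19 and the arylsulfatase Arsb by 2.45 ± 0.24, whereas Ctsa, the protective cathepsin A, differed by -2.65 ± 0.20 (log2, SE). Of the inhibitors, Cst3 was higher in cDC1 at 1.78 ± 0.21 and Cst7, cystatin F of the endosomal pathway, lower at -2.60 ± 0.31. In mature dendritic cells against cDC2, the membrane list had 6 of 16 genes higher and 3 lower, and the hydrolases 4 of 30 higher and 13 lower, beside 13.9% of all genes higher and 16% lower. Cd63, a tetraspanin of late endosomes, differed by 5.83 ± 0.52 and Cd68, a macrophage lysosomal glycoprotein, by -2.04 ± 0.29. Lgmn, the legumain that processes cathepsins, stood at 1.32 ± 0.39. Mature cells had 2 sums.

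In NK cells against CD8 T cells, 7 of 16 membrane and pump genes were higher and 0 lower, and 3 of 6 genes of mannose-6-phosphate sorting were higher and 0 lower, beside 19.8% of all genes higher and 23.6% lower. Of 12 granule proteases, 5 were higher, with Cma1, a mast-cell-type chymase, at 6.70 ± 0.25 and Gzma, granzyme A, at 4.69 ± 0.48 (log2, SE). Gzmf and Gzmk were lower, at -1.98 ± 0.66 and -1.45 ± 0.37. Ctsw, the cathepsin of killer cells, was higher in NK cells at 1.01 ± 0.14. In Treg cells against CD8 T cells it was lower at -1.96 ± 0.21, beside 5 of 12 granule proteases lower and 0 higher, where 8.49% of all genes were lower and 9.01% higher. Gm2a, the activator of GM2 ganglioside breakdown, was higher in Treg cells at 2.31 ± 0.20 and lower in NK cells at -2.11 ± 0.21, each against CD8 T cells. Among 10 inhibitors in macrophages against monocytes, 3 were higher and 2 lower, beside 19.3% and 19% of all genes, Serpinb6a at 3.31 ± 0.31 and Serpinb1a at -1.65 ± 0.49. These values carry the same spread between libraries as the class contrasts of the cathepsins.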
